A study of Homo sapiens with 18 samples.

Results

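The TAM receptors are TYRO3, AXL and MERTK, a family of receptor tyrosine kinases, and their main ligands are GAS6 and PROS1. Their 5 genes were taken by symbol from the 63677 Ensembl genes of the count table and followed over all 18 libraries. AXL was chosen on these data, since the study's list of genes lowered by all 4 plasmids holds it, and the other 4 genes were selected by their place in the same receptor system. The values of AXL against the controls are therefore given as a description without a test. All 5 genes had more than 5 counts in all 18 libraries and were among the 15576 genes tested.

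TAM receptors sit in the plasma membrane and are bound by GAS6 or by protein S, the product of PROS1. Both ligands carry a domain of gamma-carboxylated glutamates that binds phosphatidylserine, so that they bridge a receptor to dying cells, platelets or viral envelopes that expose this lipid. Activated receptors signal through adaptor proteins to PI3K and AKT and to RAC-driven uptake of dead cells. AXL is the TAM receptor best known in lung cancer, where it is linked to a mesenchymal state and to resistance against inhibitors of other kinases, while MERTK is best known in macrophages and TYRO3 in the nervous system.

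The cells were NCI-H1299, a human non-small cell lung carcinoma line. They were transfected transiently, by lipofection, with plasmids for Flag-tagged human TBX2, HA-tagged human TBX3, Flag-tagged human TBX4 or HA-tagged mouse Tbx5, which are transcription factors of the T-box family. By the study's methods, TBX3 and Tbx5 were carried by pCGN plasmids, and TBX2 and TBX4 by pORF plasmids. Controls were an empty vector (EV), whose backbone the labels do not name, and a group labelled Ctl, whose treatment is not named. A difference between a pCGN and a pORF group cannot be told apart from one of backbone or tag. Each of the 6 groups had 3 libraries, lettered a, b and c, and the 6 EV and Ctl libraries were pooled as controls. Nothing in the labels says that the 3 libraries of a group came from separate cultures, so p-values measure the spread between these samples, which may be technical. Transfected and untransfected cells were sequenced together, and in such bulk samples fewer cells with a transcript and less of it per cell cannot be told apart.

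Libraries held 7.36522e+06 to 1.17432e+07 counts. The most counted gene, ENSG00000266658, took 10.7% to 53.5% of them. Its share was 12.4% to 40.2% in the controls, 19.6% to 40.5% for TBX2 and 10.7% to 47.4% for TBX3. It was 13.2% to 18.6% for TBX4 and 22.5%, 53.5% and 52.7% in TBX5 replicates a, b and c. Every TBX5 library was thus above every TBX4 library in this share. Levels are therefore given as counts per 1000000 counts (CPM) on TMM-scaled library sizes, which lower the weight of such genes. A level of 3 counts, taken as the floor of detection, was 0.191 to 0.593 CPM. Each overexpressed gene was checked first. TBX2 stood at 4073 to 4806 CPM in its own libraries and at most 4.82 elsewhere, TBX3 at 17690 to 25335 against 13.2, and TBX4 at 7520 to 8471 against 3.56. Human TBX5 stood at 128 to 242 CPM in the libraries of the mouse plasmid and at most 0.131 elsewhere. The label of TBX4 replicate c also ends in TBX5, but its library held 85197 TBX4 counts and 1 TBX5 count, and AXL differed from the controls by -0.57 on the log2 scale without it. Markers of lung adenocarcinoma (NKX2-1, NAPSA, SFTPB, SFTPC and MUC1) summed to 1.71 to 3.66 CPM. Of 6 epithelial markers, 3 had at most 3 counts in any library, among them EPCAM and CDH1, with at most 3 and 2. That list also holds keratins, and its sum was 97.1 to 115 CPM in the controls. VIM, a mesenchymal intermediate filament gene, stood at 895 ± 40.4 CPM (SD, n = 6) in the controls.

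AXL (ENSG00000167601) lies on the plus strand of chromosome 19 at 41725128 to 41767671 in GRCh37, the build of the counts, and MERTK (ENSG00000153208) on the plus strand of chromosome 2 at 112656184 to 112787138. TYRO3 (ENSG00000092445) is on chromosome 15 at 41849873 to 41875787 on the plus strand. The ligand genes are on minus strands, GAS6 (ENSG00000183087) on chromosome 13 at 114523522 to 114567049 and PROS1 (ENSG00000184500) on chromosome 3 at 93591895 to 93698847. An antisense lncRNA, ENSG00000269652, covers 67 of the 5134 exonic bases of AXL, and GAS6-AS1 covers 421 of the 6015 of GAS6. The counts were made without strand, so reads in these overlaps cannot be told apart, but GAS6-AS1 had only 0 to 4 counts in a library. The pseudogenes TYRO3P and PROS2P, which resemble TYRO3 and PROS1, had 3 to 21 and 0 to 1 counts.

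Since the plasmids encode DNA-binding factors, the promoter windows of AXL, with the largest differences from the controls among the 5 genes, and of MERTK, whose direction differed between plasmids, are shown from RefSeq (GRCh38.p14, another build than that of the counts), 250 bases before to 50 bases after an annotated start, all on the plus strand. AXL has a pair of such windows, chr19:41218973-41219272 and chr19:41226505-41226804, and MERTK has chr2:111898357-111898656. Capitals mark matches, on either strand, to the T-box core GGTGTG, the AP-1 motif TGANTCA, the SP1 motif GGGCGG or the TEAD motif GGAATG.
AXL window 1: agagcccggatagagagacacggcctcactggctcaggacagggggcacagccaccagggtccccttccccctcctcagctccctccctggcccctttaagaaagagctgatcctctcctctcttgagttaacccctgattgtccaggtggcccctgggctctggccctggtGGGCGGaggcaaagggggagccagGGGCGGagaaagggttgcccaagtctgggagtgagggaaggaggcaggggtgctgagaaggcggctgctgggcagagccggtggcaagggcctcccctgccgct
AXL window 2: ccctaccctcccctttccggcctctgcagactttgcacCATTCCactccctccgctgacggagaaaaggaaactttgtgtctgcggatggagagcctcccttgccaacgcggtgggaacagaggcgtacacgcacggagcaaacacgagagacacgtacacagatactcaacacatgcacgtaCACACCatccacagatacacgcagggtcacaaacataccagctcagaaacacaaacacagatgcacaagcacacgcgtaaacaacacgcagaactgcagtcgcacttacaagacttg
MERTK window: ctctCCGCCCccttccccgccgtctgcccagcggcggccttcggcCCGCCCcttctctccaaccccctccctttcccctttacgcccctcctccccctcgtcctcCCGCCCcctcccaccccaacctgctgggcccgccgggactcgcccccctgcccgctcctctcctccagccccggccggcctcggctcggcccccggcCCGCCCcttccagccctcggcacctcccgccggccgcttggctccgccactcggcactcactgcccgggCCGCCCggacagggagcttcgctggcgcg

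The first AXL window was 66.0% G and C and held 2 SP1 matches, at -78 and -54 from the start. In the second AXL window, with 53.7% G and C, 1 T-box core lay on the minus strand at -67 and 1 TEAD match on the minus strand at -212. The MERTK window was 78.3% G and C, with 5 SP1 matches on the minus strand. The longer T-box half-site AGGTGTGA, which contains the core, was in none of the 7 windows of the 5 genes. Among 35114 promoter windows of this length, with a median G and C content of 58.7%, the half-site was in 0.980%, the core in 16.8%, AP-1 in 7.71%, SP1 in 45.0% and TEAD in 14.0%. A match of letters is a description and not a site of binding.

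AXL was by far the most abundant gene of the system. Per kilobase of exon, where levels can be compared between genes, the controls had 105 ± 4.54 CPM of AXL, 4.32 ± 0.356 of MERTK, 2.25 ± 0.149 of PROS1, 2.12 ± 0.237 of GAS6 and 1.29 ± 0.116 of TYRO3 (SD, n = 6). PROS1 and GAS6 did not differ beyond their spread, and with the longest transcript as the length GAS6, at 4.83, came to the level of MERTK, at 4.67 CPM per kilobase. AXL stood at rank 93 of the 15576 tested genes by mean CPM and the other 4 members between ranks 6134 and 7688.

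AXL was lower with all 4 plasmids than in the controls. The 6 control libraries ranged from 505 to 574 CPM, with a median of 541 and a mean of 541 ± 23.3 (SD, n = 6). The TBX2 libraries stood at 302, 301 and 284 CPM, for a mean of 296 ± 10.5 (SD, n = 3), which was 0.547 of the controls. Every TBX2 library was thus below the lowest library of any other group. The TBX3 libraries stood at 394, 349 and 376 CPM (373 ± 22.8), and those of TBX4 at 359, 369.7 and 340.2 CPM (356 ± 14.9). The TBX5 libraries, at 378, 329 and 327 CPM (345 ± 28.9), overlapped both. All 12 TBX libraries lay below all 6 controls, and TBX3, TBX4 and TBX5 overlapped each other. The mesenchymal markers were VIM, CDH2, FN1 and ZEB1. Their sum was 964 to 1081 CPM in the controls, 813 to 876 for TBX2 and 866 to 896 for TBX3. It was 898 to 972 for TBX4 and 921 to 1007 for TBX5. The sum was thus also below every control in the TBX2 and TBX3 libraries, but VIM made up most of it in the controls. The 4 genes went both ways: 2 rose and 2 fell with TBX2, beside 32.6% of all genes called. With each other plasmid 1 rose and 1 fell, beside 14.9%, 13.0% and 12.7%. The part of these markers in the AXL values was not tested.

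As log2 fold changes, these differences of AXL were -0.87 ± 0.06 (SE) for TBX2, -0.54 ± 0.06 for TBX3, -0.61 ± 0.06 for TBX4 and -0.65 ± 0.06 for TBX5. Ordered from the most negative log2 fold change of all 15576 tested genes, AXL stood at places 147, 351, 193 and 298 in the same order of plasmids. With single libraries left out the values stayed between -0.89 and -0.84, -0.58 and -0.49, -0.63 and -0.57, and -0.72 and -0.61. The 4 contrasts share their control libraries and are not independent of each other. By plain library totals the difference with TBX4 was -0.35 and that with TBX5 -0.94, while that scaling moved the median of all genes by 0.25 and -0.31. With a covariate for the percentage of counts taken by the top gene, AXL stood at -0.87, -0.54, -0.67 and -0.61 for the plasmids in order.

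**Figure D1:**
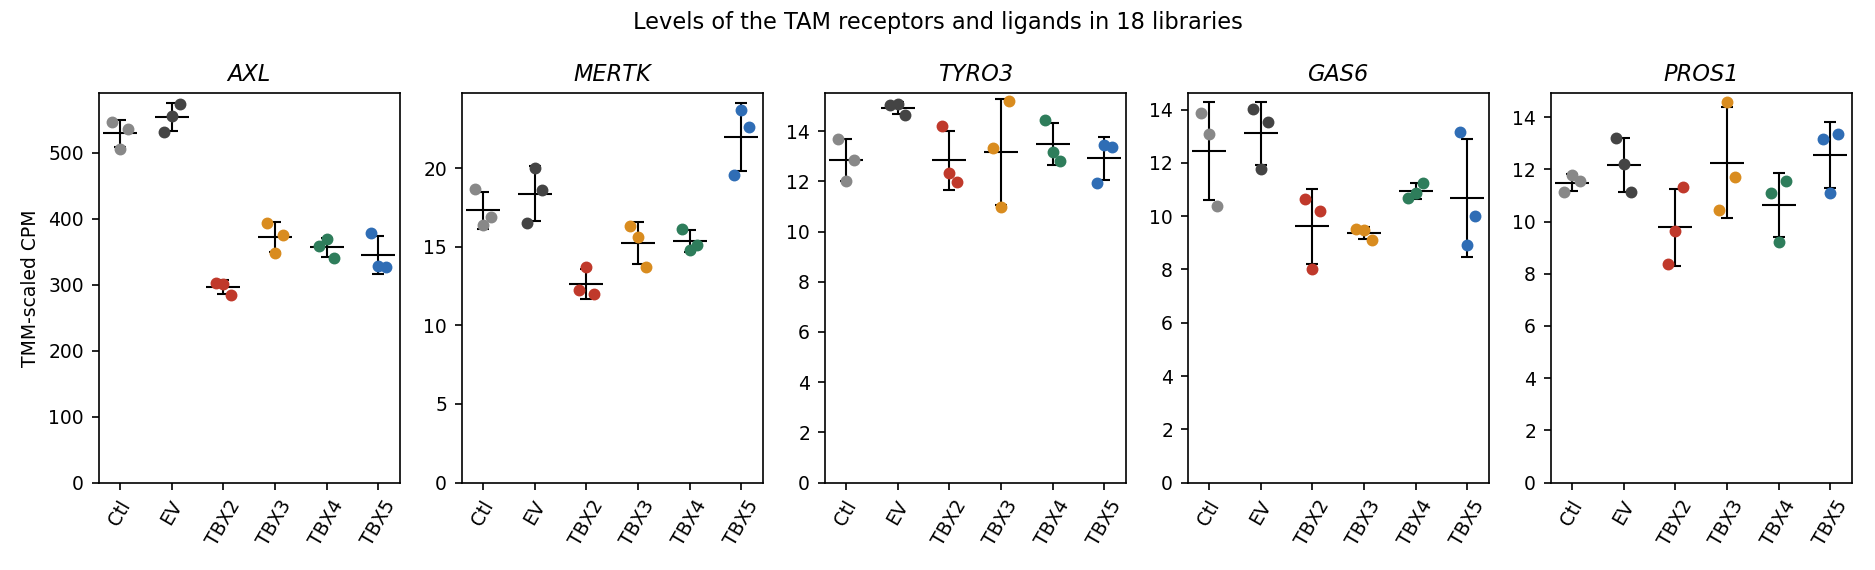
Level of each of the 5 genes in every library, in CPM on TMM-scaled library sizes, by group; points are libraries, and bars mark group means with their SD (n = 3). All 12 AXL points of the TBX groups, from 284 to 394 CPM, lie below the lowest control at 505 CPM, whereas MERTK is lowest with TBX2 and highest with TBX5.

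The count of members past an adjusted p of 0.1 was 4 of 5 with TBX2, beside 32.6% of all tested genes, 3 of 5 with TBX3, beside 14.9%, 1 of 5 with TBX4, beside 13.0%, and 2 of 5 with TBX5, beside 12.7%. AXL is in each of these counts, as its choice fixed. Among the other 4 members, 3, 2, 0 and 1 passed.

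MERTK moved in both directions. The 6 controls ranged from 16.4 to 20.0 CPM with a median of 17.8. TBX2 libraries had 12.2, 13.7 and 12.0 CPM, all below the controls, and MERTK fell with TBX2 (log2 fold change -0.49 ± 0.10, adjusted p = 0.000755). The TBX3 libraries, at 16.3, 15.6 and 13.7 CPM, also lay below every control, and here too the gene fell (-0.25 ± 0.09, adjusted p = 0.0907). With TBX4, libraries of 16.1, 14.8 and 15.1 CPM lay below every control as well, yet the difference of -0.22 ± 0.08 missed the threshold at an adjusted p of 0.103. TBX5 went the other way, with 19.6, 23.7 and 22.6 CPM, the first of which overlapped the controls (0.28 ± 0.10, adjusted p = 0.0795).

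The TBX3 and TBX5 calls of MERTK were near the threshold. The TBX3 call was lost without Ctl replicate a, EV replicates b or c, or TBX3 replicates b or c (adjusted p = 0.130, 0.161, 0.132, 0.134 and 0.429), with DESeq2 (adjusted p = 0.163), with no filter (adjusted p = 0.110) and against Ctl alone (adjusted p = 0.275). The TBX5 call was lost without Ctl replicates b or c, EV replicate a, or TBX5 replicates b or c (adjusted p = 0.129, 0.121, 0.128, 0.268 and 0.225), with a covariate for the percentage of the top gene (adjusted p = 0.112), with DESeq2 (adjusted p = 0.138), with no filter (adjusted p = 0.211) and against EV or Ctl alone (adjusted p = 0.243 and 0.105). By library totals, which moved the median of all genes by -0.31, the MERTK value with TBX5 was -0.044, or 0.27 above that median. With TBX4, where that scaling moved the median by 0.25, the MERTK value was 0.035, or -0.22 relative to it, and that of GAS6 was 0.020.

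The epithelial marker KRT8, a keratin, was the gene whose log2 level ran most like that of MERTK. It stood at 37.6 ± 2.86 CPM in the controls (SD, n = 6) and averaged 21.5 for TBX2, 27.8 for TBX3, 32.1 for TBX4 and 45.4 for TBX5. The epithelial list, of which 3 of 6 genes had at most 3 counts in any library, summed to 97.1 to 115 CPM in control libraries, 68.7 to 77.0 for TBX2, 77.7 to 85.0 for TBX3, 84.6 to 99.4 for TBX4 and 102 to 127 for TBX5. The 3 tested genes of that list, KRT8 among them, did not all move alike. With TBX2, 1 rose and 2 fell, beside 32.6% of all genes called, and with TBX3 2 fell, beside 14.9%. With TBX4 1 fell, beside 13.0%. With TBX5 1 rose, beside 12.7%, while the median log2 fold change of the 3 was -0.065. The part of these markers in the MERTK values was not tested. Macrophage markers, of interest because macrophages are rich in MERTK, summed to at most 2.48 CPM in any library. Their sum was 0.683 to 1.56 in the controls, 1.78 to 2.18 with TBX2 and 1.54 to 2.48 with TBX3. With TBX4 it was 1.29 to 2.00 and with TBX5 1.11 to 1.66. Only 1 of these 5 genes had enough counts to be tested, and it passed with no plasmid.

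TYRO3, the third receptor, did not pass the test with any plasmid. The controls ranged from 12.0 to 15.1 CPM with a median of 14.2, and the groups averaged 12.8 ± 1.19, 13.2 ± 2.12, 13.5 ± 0.851 and 12.9 ± 0.843 CPM (SD, n = 3) in the order TBX2 to TBX5, each overlapping the controls. The 95% intervals of the log2 fold change were -0.32 to 0.11 for TBX2, -0.26 to 0.18 for TBX3, -0.23 to 0.15 for TBX4 and -0.35 to 0.11 for TBX5, so that changes as large as those of AXL lay outside them. Adjusted p-values were 0.496, 0.886, 0.844 and 0.569.

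The share of AXL among the 3 receptors was lower with each plasmid, although AXL stayed dominant. Per kilobase it was 95.0% ± 0.232 in the controls (94.5% to 95.2%), 93.1% ± 0.179 for TBX2, 93.7% ± 0.266 for TBX3, 93.3% ± 0.377 for TBX4 and 91.1% ± 1.35 for TBX5 (SD). The TBX5 libraries, from 90.2% to 92.6%, held the lowest shares. AXL exceeded MERTK per kilobase by 24.5-fold ± 1.33 in the controls, 18.9 ± 1.13 for TBX2, 19.8 ± 2.07 for TBX3, 18.7 ± 1.20 for TBX4 and 12.8 ± 2.41 for TBX5. These ratios need no scaling between libraries, but they rest on the AXL values that led to its choice and were not tested.

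GAS6, the ligand with the highest affinity for AXL, fell with TBX2 and TBX3. Controls ranged from 10.4 to 14.0 CPM with a median of 13.3. The TBX2 libraries stood at 10.6, 8.02 and 10.2 CPM, of which the first overlapped the controls (-0.43 ± 0.12, adjusted p = 0.0125). This call was lost without TBX2 replicate b, at -0.29 and an adjusted p of 0.131. The TBX3 libraries, at 9.54, 9.48 and 9.11 CPM, lay below all controls (-0.46 ± 0.11, adjusted p = 0.00956), and the call held with each of the 9 libraries left out in turn. TBX4 libraries had 10.7, 10.9 and 11.3 CPM and TBX5 libraries 13.2, 8.90 and 10.0 CPM. Neither passed (intervals -0.44 to -0.03 and -0.49 to 0.06, adjusted p = 0.154 and 0.354), although the TBX4 call was made without Ctl replicate c (adjusted p = 0.0649) and the TBX5 call without TBX5 replicate a (-0.43, adjusted p = 0.0953).

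PROS1, which encodes the plasma anticoagulant protein S, fell with TBX2. Its controls ranged from 11.1 to 13.2 CPM with a median of 11.7, and TBX2 libraries stood at 8.36, 9.63 and 11.3 CPM, the last within the controls (-0.29 ± 0.11, adjusted p = 0.0631). The call was lost without EV replicate a, TBX2 replicate a or TBX2 replicate b (adjusted p = 0.110, 0.323 and 0.145), with DESeq2 (adjusted p = 0.133) and against EV or Ctl alone (adjusted p = 0.103 and 0.192). TBX3 libraries had 10.5, 14.6 and 11.7 CPM, TBX4 libraries 11.1, 9.23 and 11.5, and TBX5 libraries 13.2, 11.1 and 13.4. Their log2 fold changes of 0.04, -0.16 and 0.10 did not pass (adjusted p = 0.879, 0.364 and 0.648).

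**Figure D2:**
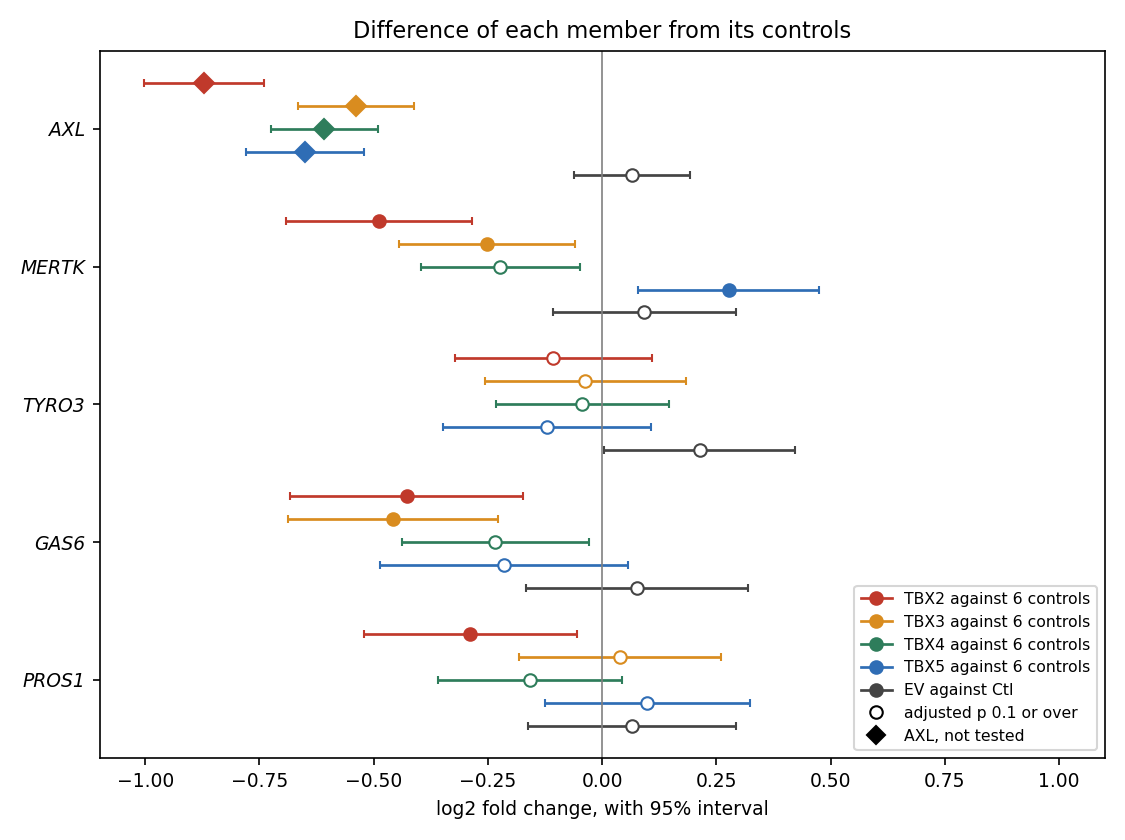
Log2 fold change of each of the 5 genes (x axis) in each TBX group against the 6 controls and in EV against Ctl, with 95% intervals; filled circles have an adjusted p under 0.1, open circles 0.1 or over, and diamonds mark AXL against the controls, which was not tested. MERTK lies to the left at -0.49 with TBX2 and to the right at 0.28 with TBX5, and TYRO3 spans 0 with all 4 plasmids.

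The empty vector itself was compared with the Ctl libraries, a contrast that did not choose AXL. By the quasi-likelihood test of edgeR 0 of 5 members passed, beside 0.385% of all genes, with 1 of 5 at an unadjusted p under 0.05 and 0 by DESeq2. AXL stood at 529 ± 21.1 CPM in Ctl and 554 ± 21.4 in EV (SD, n = 3), a log2 difference of 0.07 with a 95% interval of -0.06 to 0.19 (adjusted p = 0.792). The member at an unadjusted p under 0.05 was TYRO3, whose EV libraries, at 14.6 to 15.1 CPM, all lay above the Ctl libraries, at 12.0 to 13.7 (0.21, adjusted p = 0.532). Against EV alone AXL differed by -0.90, -0.57, -0.64 and -0.68 with TBX2 to TBX5, and against Ctl alone by -0.84, -0.51, -0.57 and -0.62.

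Pairs of TBX groups set no control library on either side and allow a test of AXL. The fit of all 18 libraries, controls included, gave their scaling and spread. Of 30 differences, 5 members in 6 pairs, 7 passed the threshold, beside 15.5% of all genes between TBX2 and TBX3, 12.3% between TBX2 and TBX4, 12.1% between TBX2 and TBX5, 9.98% between TBX3 and TBX4, 7.41% between TBX3 and TBX5 and 0.539% between TBX4 and TBX5. AXL was lower with TBX2 than with TBX3 by a log2 difference of -0.33 (95% interval -0.48 to -0.19, adjusted p = 0.00176), than with TBX4 by -0.27 (-0.41 to -0.13, adjusted p = 0.0144) and than with TBX5 by -0.22 (-0.37 to -0.08, adjusted p = 0.0470). The last call was lost without TBX2 replicate c or TBX5 replicate a (adjusted p = 0.148 and 0.255). It was kept in 8 of 10 alternatives of the processing, where the difference ranged from -0.25 to 0.079. No difference in AXL was detectable between TBX3 and TBX4 (-0.08 to 0.21, adjusted p = 0.655), TBX3 and TBX5 (-0.03 to 0.25, adjusted p = 0.446) or TBX4 and TBX5 (-0.10 to 0.19, adjusted p = 0.915).

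MERTK set TBX5 apart from each other plasmid. It was lower with TBX2 than with TBX5 by -0.77 (95% interval -1.0 to -0.53, adjusted p = 2.78e-05), with TBX3 by -0.53 (-0.75 to -0.31, adjusted p = 0.00309) and with TBX4 by -0.50 (-0.71 to -0.28, adjusted p = 0.0316). The groups did not overlap in any of these pairs. The TBX4 call was lost without TBX4 replicates b or c or TBX5 replicates b or c (adjusted p = 0.139, 0.102, 0.181 and 0.180), and with that covariate for the top gene (adjusted p = 0.346). PROS1 was lower with TBX2 than with TBX5 (-0.39, interval -0.69 to -0.09, adjusted p = 0.0981), a call lost in 12 of the 18 fits without 1 library, with an adjusted p of up to 0.322. TYRO3 and GAS6 passed in none of the 6 pairs.

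**Figure D3:**
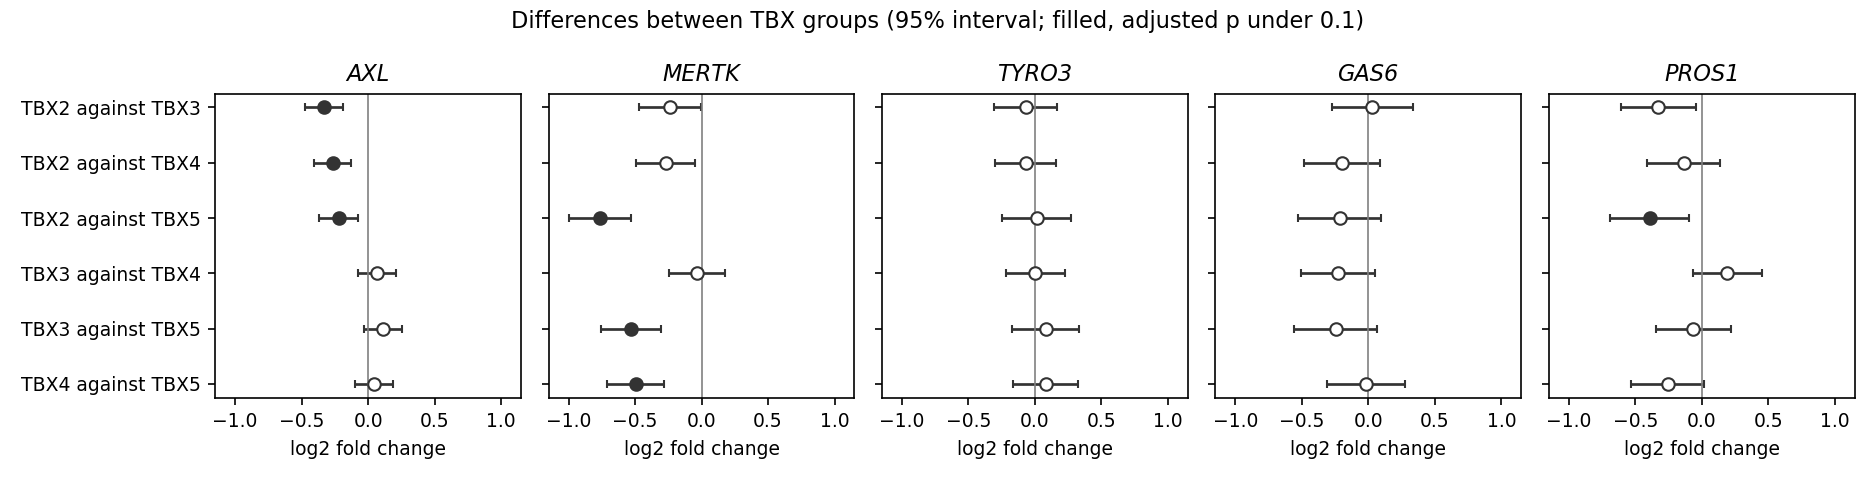
Log2 difference of each of the 5 genes (x axis) between the 6 pairs of TBX groups, with 95% intervals from 1 fit of all 18 libraries; filled points have an adjusted p under 0.1. The 3 filled AXL points are the pairs with TBX2, from -0.33 to -0.22, and the 3 filled MERTK points are the pairs with TBX5, from -0.77 to -0.50.

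Genes that act with the receptors were read from a list of 58, of which 49 were tested. With TBX2, 4 rose and 14 fell (36.7% of 49, beside 32.6% of all genes), with TBX3 5 rose and 6 fell (22.4%, beside 14.9%), with TBX4 3 rose and 8 fell (22.4%, beside 13.0%), and with TBX5 4 rose and 9 fell (26.5%, beside 12.7%). Their median log2 fold changes were -0.06, 0.01, -0.05 and 0.03, against about 0 for all genes, and none passed between EV and Ctl. By library totals the called genes were 1 up and 4 down with TBX2, 1 up and 0 down with TBX3, 7 up and 0 down with TBX4, and 0 with TBX5. That scaling turned the sign of SHC1, RAC1, DOCK1, SP3, TEAD1 and FOSL1 with TBX4 and of RANBP9 with TBX5, each among the called genes, while relative to the median of all genes all 7 kept their sign.

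Gamma-carboxylation makes the lipid-binding domain of GAS6 and protein S. GGCX, the carboxylase, rose with TBX2 (0.32, adjusted p = 0.00296), TBX4 (0.23, adjusted p = 0.0463) and TBX5 (0.43, adjusted p = 0.00137), from 19.9 ± 0.651 CPM in the controls (SD, n = 6) to means of 24.9 with TBX2 and 26.6 with TBX5. Its TBX4 call was kept in 7 of 9 fits without 1 library (adjusted p up to 0.204, without TBX4 replicate c), and its value with TBX3 was 0.15 (adjusted p = 0.224). VKORC1, which regenerates the vitamin K that GGCX needs, fell with TBX2 from 7.94 to 4.71 CPM (-0.72, adjusted p = 0.000671) and stood at -0.22, -0.22 and -0.26 with the others, none past the threshold. Its paralog VKORC1L1 passed in no contrast. Of the 2 proteases that shed the receptors' outer parts, ADAM10 passed nowhere and ADAM17 rose with TBX3 (0.17, adjusted p = 0.0899), a call kept in 1 of 9 fits without 1 library. The alternative ligands TUB and LGALS3 passed with no plasmid, and TULP1 had too few counts to be tested.

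Adaptors and effectors downstream of the receptors were the longest list, with 20 of the 49 tested genes. Of these, 1 rose and 9 fell with TBX2, beside 32.6% of all genes called, 1 and 5 with TBX3, beside 14.9%, 1 and 5 with TBX4, beside 13.0%, and 2 and 5 with TBX5, beside 12.7%. SHC1, an adaptor that links receptors to RAS, fell from 113 ± 4.97 CPM in the controls (SD, n = 6) to 76.3 for TBX2, 98.8 for TBX3, 97.5 for TBX4 and 91.9 for TBX5 (-0.56, -0.19, -0.21 and -0.29, adjusted p = 8.02e-07, 0.0297, 0.0146 and 0.00298). AKT2, a kinase downstream of PI3K, also fell with each plasmid, by log2 fold changes of -0.61, -0.21, -0.40 and -0.30. SHC1, AKT2 and RAC1 are, like AXL, on the study's list of shared genes made from these samples, so their common direction is not independent evidence. TNS2, a focal adhesion protein that binds AXL, fell with TBX2 (-0.90, adjusted p = 2.20e-05), TBX3 (-0.36, adjusted p = 0.0430) and TBX4 (-0.55, adjusted p = 0.00396), and stood at -0.26 with TBX5 (adjusted p = 0.209). With 1 library left out, the TBX3 calls of TNS2 and AKT2 were kept in 7 and 8 of 9 fits (adjusted p up to 0.174 without TBX3 replicate a and 0.104 without TBX3 replicate c).

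Of 5 tested genes for the exposure of phosphatidylserine, 1 rose with each of TBX2, TBX3 and TBX4, and 0 passed with TBX5. Among 6 tested genes that read it, 1 fell with TBX2 and 0 passed with the other plasmids. The share of all genes called was 32.6%, 14.9%, 13.0% and 12.7% with TBX2 to TBX5. ANO6, a scramblase that moves the lipid to the outer leaflet, rose with TBX2 (0.23, adjusted p = 0.00509) and TBX3 (0.34, adjusted p = 0.000356) and stood at 0.03 and 0.10 with TBX4 and TBX5. ATP11A, a flippase that returns it, passed nowhere. Among 6 other receptors and bridging proteins for this lipid, MFGE8 fell with TBX2 (-0.32, adjusted p = 0.0600), a call kept in 6 of 9 fits without 1 library, and ITGAV and LRP1 passed with no plasmid.

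Of 11 tested transcription factors known to act on AXL, 1 rose and 3 fell with TBX2, near the 32.6% of all genes called, 2 and 1 with TBX3, beside 14.9%, 0 and 3 with TBX4, beside 13.0%, and 1 and 4 with TBX5, beside 12.7%. JUN, an AP-1 subunit, rose with TBX2 and TBX3, from 16.5 CPM in the controls to 28.1 and 39.0 (0.78 and 1.24, adjusted p = 2.23e-05 and 4.10e-08), and stood at -0.02 with TBX4 and 0.30 with TBX5 (adjusted p = 0.150). FOSL1, another AP-1 subunit, fell with TBX2, TBX4 and TBX5 (-0.30, -0.26 and -0.27, adjusted p = 0.00998, 0.0345 and 0.0932). These FOSL1 calls were kept in 9, 7 and 4 of 9 fits without 1 library. WWTR1, the Hippo pathway coactivator TAZ, rose with TBX3 (0.22, adjusted p = 0.0448) and TBX5 (0.36, adjusted p = 0.00275). TEAD4, a DNA-binding partner of TAZ, fell with TBX2 (-0.35, adjusted p = 0.00185) and TBX3 (-0.20, adjusted p = 0.0854). With 1 library left out, the TBX3 call of WWTR1 was lost without TBX3 replicate a (adjusted p = 0.272), and that of TEAD4 was kept in 5 of 9 fits (adjusted p up to 0.243).

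**Figure D4:**
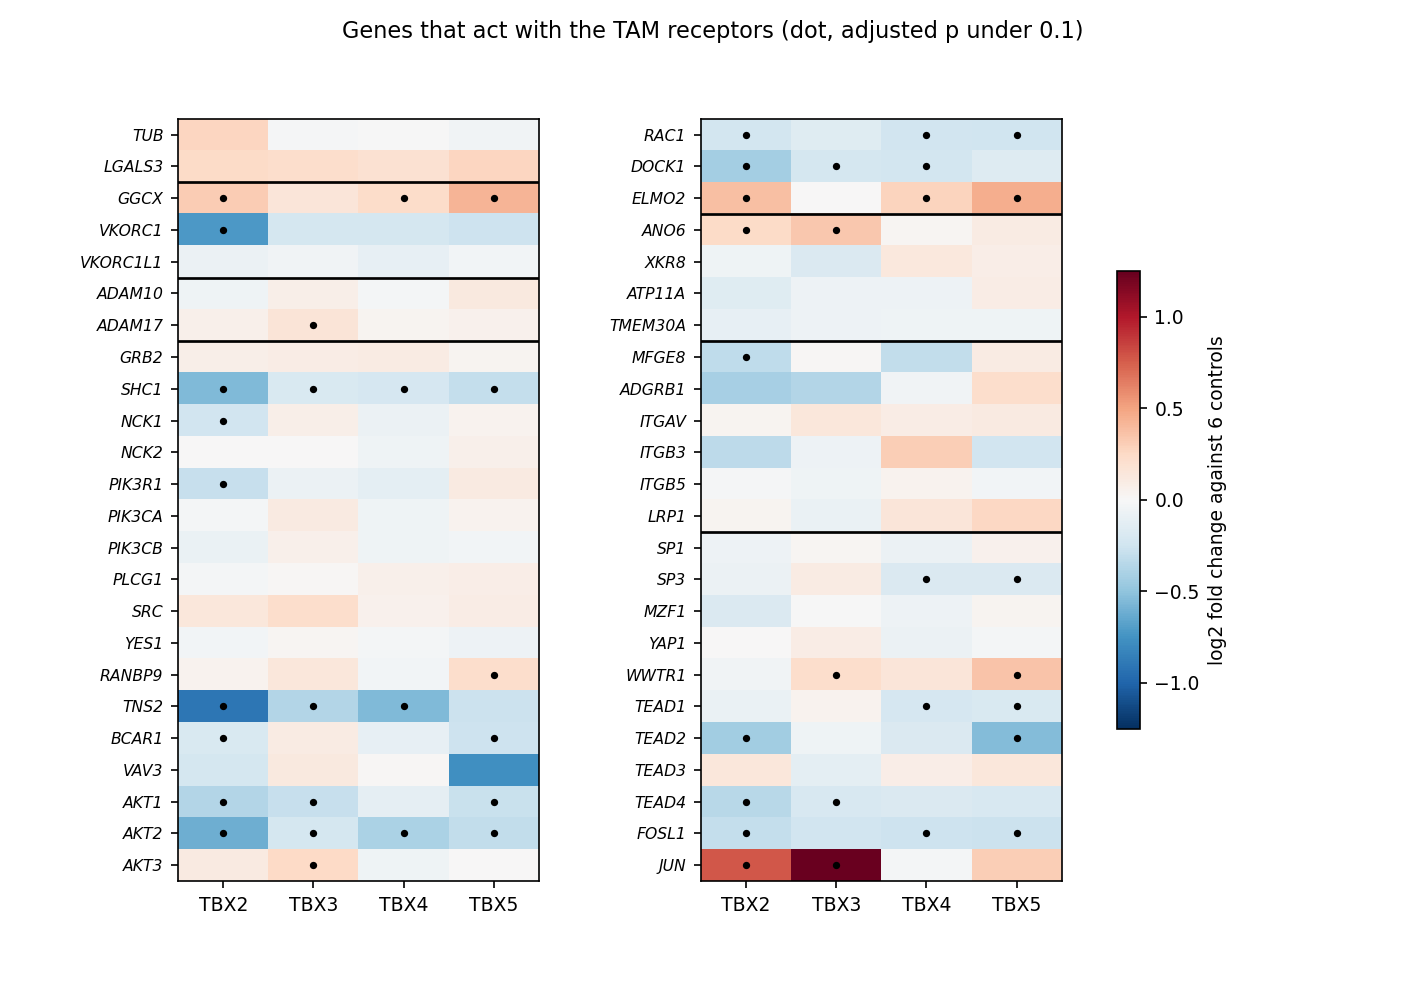
Log2 fold change against the 6 controls (colour, from blue for lower to red for higher) of the tested genes that act with the TAM receptors, in each TBX group; dots mark an adjusted p under 0.1 and horizontal lines part the lists. SHC1 and AKT2 are blue with a dot in all 4 columns, and JUN is the darkest red, at 1.24 with TBX3.

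AXL was also read against its neighbours on chromosome 19. Within 500 kb of its start, 15 other genes were tested, of which 1 rose and 5 fell with TBX2, beside 32.6% of all genes called in either direction, and 3, 4 and 3 fell with TBX3, TBX4 and TBX5 with none rising, beside 14.9%, 13.0% and 12.7% of all genes. Their median log2 fold changes were -0.26, -0.10, -0.22 and -0.26. HNRNPUL1, an RNA-binding protein gene that starts 43273 bases downstream and follows AXL directly, fell with all 4 plasmids (-0.61, -0.24, -0.37 and -0.25, adjusted p = 4.29e-07, 0.0361, 0.000280 and 0.0285). Its call was lost with TBX3 without TBX3 replicate c (adjusted p = 0.239) and with TBX5 without TBX5 replicate a (adjusted p = 0.135), and the gene is on that same list of shared genes. The nearest tested gene, the antisense lncRNA ENSG00000269652, 2203 bases from the AXL start, had 4 to 27 counts and passed with no plasmid. DMAC2, which encodes an assembly factor of the respiratory chain, fell with TBX2, TBX4 and TBX5 (-0.49, -0.28 and -0.27, adjusted p = 9.60e-05, 0.0152 and 0.0569), and EGLN2, an oxygen-sensing hydroxylase, with TBX2 and TBX4 (-0.44 and -0.35, adjusted p = 0.00202 and 0.0149). Without 1 library the DMAC2 call was kept in 8 of 9 fits with TBX4 and 6 of 9 with TBX5 (adjusted p up to 0.126 and 0.273), and the TBX4 call of EGLN2 in 8 of 9 (adjusted p up to 0.111). ACTMAP, which encodes a protease that matures actin, rose with TBX2 (0.67, adjusted p = 0.00422). By library totals 1 neighbour was called up and 1 down with TBX2 and none with the others.

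**Figure D5:**
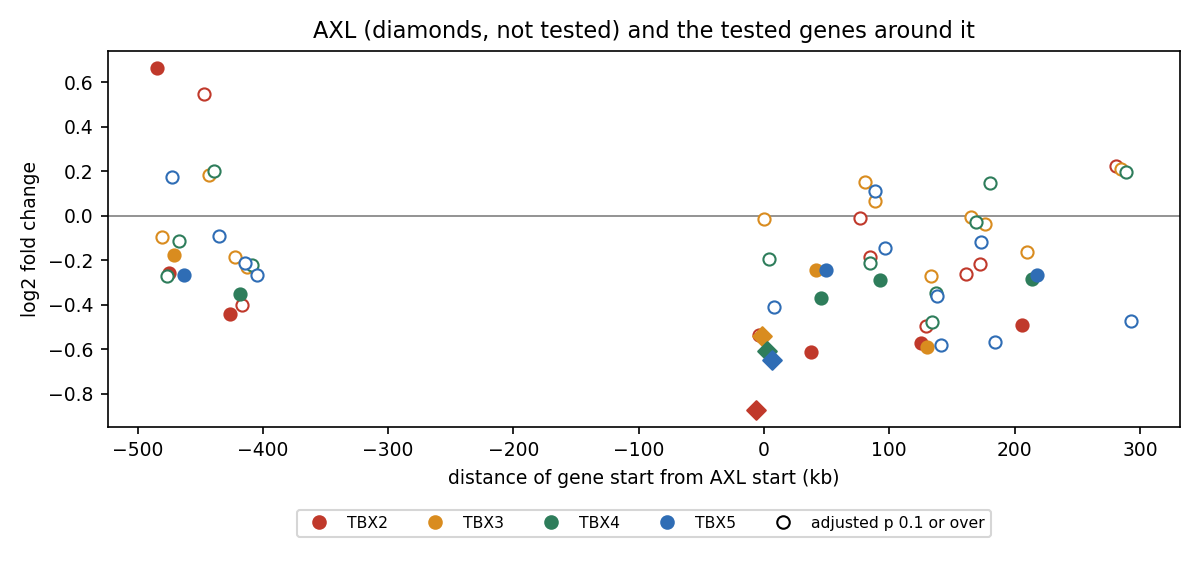
Log2 fold change against the 6 controls (y axis) of AXL and the 15 tested genes around it, by the distance of the gene start from the AXL start in kb (x axis), coloured by plasmid; filled circles have an adjusted p under 0.1, open circles 0.1 or over, and the diamonds are AXL, not tested. AXL with TBX2, at -0.87, is the lowest point, and the filled points right of it at -0.61 to -0.24 are HNRNPUL1.

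Over the 18 libraries AXL ran most like genes outside the receptor system. Among 7879 tested genes with a symbol and at least 10 CPM, the highest Pearson r of log2 CPM with AXL were those of ANXA1 (0.965), a phospholipid-binding annexin, UQCRFS1 (0.955), a subunit of respiratory complex III, TTL (0.944), which adds tyrosine to tubulin, G3BP1 (0.941), a stress granule protein, and EIF1AX (0.939), a translation initiation factor. The lowest were those of ZKSCAN8 (-0.964), EAF1 (-0.950) and RBM48 (-0.948). Of the other members GAS6 was closest to AXL, at 0.698, followed by MERTK at 0.383, TYRO3 at 0.378 and PROS1 at 0.262. ANXA1 and EIF1AX are, like AXL, on the study's list of shared genes made from these samples. The 18 points share libraries, scaling and the 6 groups, so these are descriptions.

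The other members had looser or different company. For MERTK the highest r were those of KRT8 (0.919), CYBA (0.893), a subunit of NADPH oxidase, and STX7 (0.855), an endosomal syntaxin. GAS6 ran most like TDRD12 (0.899), PRKDC (0.888), the catalytic subunit of DNA-dependent protein kinase, and EVL (0.862), an actin regulator. For PROS1 they were SOWAHC (0.810), FBXO5 (0.785), an inhibitor of the anaphase-promoting complex, and WDR87 (0.771), and for TYRO3 IFRD2 (0.741), ENOPH1 (0.728) and ELOB (0.723). The highest r of TYRO3 were below those of the other members. TYRO3 had 68 to 230 counts in a library, against 1663 to 9028 for AXL and 74 to 293 for MERTK. GAS6 had 45 to 213 and PROS1 56 to 175, so counting error weighs more in the 4 low genes. GAS6 and PROS1 had fewer counts than TYRO3 but higher r, and the part of the counts in these r was not tested.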

How the data were processed

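RNA-seq of 18 libraries was used. As stated in the study's methods, the authors used STAR to map the read pairs to GRCh37 and the default, unstranded settings of featureCounts to assign them to Ensembl genes, and they deposited the raw counts. The submitters' processing notes also name bcl2fastq 1.8.4, STAR 2.3.0 and DESeq2. Groups and replicate letters came from the labels. Symbols and positions came from GENCODE v44lift37.

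Genes with over 5 counts in at least 10 of 18 libraries were kept. Each TBX was compared with the 6 pooled controls, EV with Ctl, and pairs of TBX groups in 1 fit of all libraries, using the quasi-likelihood test of edgeR 4.0.16 in R 4.3.3, TMM scaling and Benjamini-Hochberg adjustment over all 15576 genes, with an adjusted p under 0.1 as the threshold. Standard errors are the log2 fold change without its sign, divided by the root of the F statistic, and intervals use the t quantile. Scripts were tested on simulated data. Libraries of 7.36522e+06 to 1.17432e+07 counts set the precision, and the floor of 3 counts covers counting error only.

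The members, gene lists and tests were chosen with earlier results of these data known. Named are the 5 members, up to 3 genes of each pathway list with the smallest p, neighbours within 500 kb of AXL (up to 4 with the smallest p and the 2 nearest), and the genes with the highest and lowest r over log2 CPM (prior count 2). RAC1, DOCK1, SP3, TEAD1, FOSL1 and RANBP9 were named after their values were seen. Alternatives were other scalings, filters, controls and thresholds, DESeq2 1.42.0, a replicate block, a GC correction, libraries left out and, added after seeing the data, a covariate for the percentage taken by the top gene. Replicate letters did not pair the samples. Protein sequences were not analysed here, and 1 pathway gene, kept in the counts, is not reported here by name.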

Additional observations from a re-analysis of the deposited data

Results flagged for a closer look

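Differences between TBX groups under the same controls were flagged where the test of the pair itself passed an adjusted p of 0.1, which 7 of 30 did. For AXL these were TBX2 against TBX3 (log2 difference -0.33), against TBX4 (-0.27) and against TBX5 (-0.22). For MERTK they were TBX5 against TBX2 (-0.77, TBX2 less TBX5), TBX3 (-0.53, TBX3 less TBX5) and TBX4 (-0.50, TBX4 less TBX5). For PROS1 it was TBX2 less TBX5 (-0.39). Their intervals and p-values are given with the pairs of TBX groups. No control library stood apart from the other 5 in any member by Dixon's test, and groups of 3 were not tested.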

How the results depend on the processing

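Scaling by library totals, which leaves the most counted gene in the total and moved the median of all genes by 0.01, -0.08, 0.25 and -0.31 with TBX2, TBX3, TBX4 and TBX5, changed most. It gave AXL differences of -0.62 with TBX3, -0.35 with TBX4 and -0.94 with TBX5, though less that median AXL stood at -0.87, -0.54, -0.60 and -0.63. It left 1, 0, 0 and 1 of 5 members called in the 4 contrasts, 5, 1, 7 and 0 of 49 pathway genes, and 2 of 30 pair differences, and it turned MERTK with TBX5 to -0.044 and both AXL between TBX2 and TBX5 and MERTK between TBX4 and TBX5 to 0.079. All genes called were then 1056 (833 higher) against 5079 (2651 higher) with TBX2, 35 (35) against 2317 (1320) with TBX3, 2789 (2756) against 2032 (1087) with TBX4, 93 (38) against 1975 (1022) with TBX5 and 6518 against 84 between TBX4 and TBX5. The top gene share as covariate left 800 with TBX4. With TBX4, 2 members were called with totals without the most counted gene, with the GC correction and against EV alone. With TBX5, 1 was called with totals without the most counted gene, no filter, the top gene share as covariate, DESeq2, EV alone, Ctl alone and an adjusted p under 0.05. Ctl alone left 7 pathway genes with TBX3.

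The replicate letters did not pair the samples (mean r of deviations 0.00043 for the same letter). With the letter as a block, 4, 2, 1 and 2 members were called, and MERTK with TBX3 (adjusted p = 0.106) and PROS1 between TBX2 and TBX5 (0.119) were lost, with 6 pair differences left.

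With each library left out in turn, members called ranged from 2 to 4 with TBX2 (2 without TBX2 replicate b), 2 to 3 with TBX3, 1 to 3 with TBX4 (3 without Ctl replicate c, 2 without Ctl replicate b or EV replicate a) and 1 to 3 with TBX5 (1 without Ctl replicates b or c, EV replicate a or TBX5 replicates b or c), and 0 between EV and Ctl. Pathway genes ranged from 16 to 18, 7 to 12 (7 without TBX3 replicate c), 8 to 12 and 8 to 14 (8 without TBX5 replicate c), and pair differences from 5 to 8. AXL ranged from -0.89 to -0.84, -0.58 to -0.49, -0.63 to -0.57 and -0.72 to -0.61. The values of single members called under the main settings, AXL against the controls left out, were followed under all alternatives. Of these, 272 kept their call, 66 lost it and 3 turned sign, the last by library totals. Values not called under the main settings are outside this count. The causes were not tested.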
